A study of Rattus norvegicus with 18 samples.

Results

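The genes described here encode the proteins of the cytosolic ribosome. They were taken from the array annotation by symbol: every probe whose symbol was Rpl or Rps followed by a number, or Rplp0, Rplp1, Rplp2 or Rpsa, with symbols starting with Rps6k (protein kinases) left out. The rule found 68 probes for 67 symbols among 22523 probes, of which 13793 carried 1 symbol. It took 43 large-subunit symbols (Rpl and Rplp) and 24 small-subunit symbols (Rps and Rpsa). Rps9 was the one gene with a pair of probes. The rule used no measured value. It also took in the paralogues Rpl3l, Rpl7l1, Rpl22l1, Rpl36al1 and Rpl37l1, and Rps19bp1, a binding partner of Rps19 that is not a subunit of the ribosome. RefSeq lists Rpl37 as an older name of Rpl37l1 and Rpl36al as an older name of Rpl36al1. Ribosomal protein genes have many near-identical processed copies in mammalian genomes, so a probe's signal may be shared with such a copy.

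The samples came from female Wistar rat pups. Their dams received tail injections of BDE-47, a flame retardant of the polybrominated diphenyl ether class, or of a vehicle made of ethanol, Cremophor EL and water. Frontal lobe was taken on postnatal day 41 after 6 injections per dam, the last on day 20, at vehicle, 0.002 and 0.2 mg/kg per injection. Total brain was taken on postnatal day 10 after 3 injections per dam, the last on day 5, at the same doses. Each of the 6 groups held 3 arrays, each from 1 pup of a different litter, which makes 18 arrays. Day 41 stands in the protocol of the frontal lobe samples, whereas the series' design text names day 10 throughout. The tissues thus differed in age and in the number of injections as well, and these cannot be told apart. In such bulk tissue, fewer cells of a type and less RNA per cell cannot be told apart either.

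Cytosolic ribosomes translate messenger RNA in every cell. The large subunit forms peptide bonds, and the small subunit reads the message. The stalk proteins Rplp0, Rplp1 and Rplp2 recruit the elongation factors. Cells make the subunit proteins in matched amounts, and most of their mRNAs begin with a run of pyrimidines (the TOP motif), through which mTOR signalling controls their translation together. In neurons, ribosomes also work in dendrites and axons.

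A sequence feature common among these genes lies near their transcription start, and it is shown for members whose expression is described below. RefSeq promoters of the rat build GRCr8 were available for 55 of the 67 genes. In the 30 bases around the annotated start (15 before it and 15 from it on), an unbroken run of at least 8 letters that were all C or T on the gene's strand was present in 34 of the 55 (61.8%), against 3124 of all 27457 promoters (11.4%). The same search for a run of A or G, which is the pyrimidine run of the opposite strand, found 1 of 55 members (1.82%) and 13% of all promoters. The longest C or T run had a median of 9 bases in members and 4 in all promoters. Capitals mark that longest run in the sequences below, each 30 bases long and written 5′ to 3′ on the gene's own strand. The first 4 genes were called higher in the frontal lobe at 0.2 mg/kg against 0.002 mg/kg, and the last was among the members that differed least between the doses.
Rpl23, chr10:83272170-83272199, minus strand: actaaCTTCCTTTCTgactctttccggacg
Rps21, chr3:187724023-187724052, plus strand: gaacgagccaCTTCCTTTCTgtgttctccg
Rplp0, chr12:46718376-46718405, minus strand: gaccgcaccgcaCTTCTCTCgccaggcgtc
Rpl24, chr11:58128391-58128420, minus strand: gaatttagggaggagaTTCTCTaccctata
Rps7, chr6:50999431-50999460, minus strand: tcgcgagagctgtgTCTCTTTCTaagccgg
The run was 10 bases long at Rpl23 and at Rps21, 8 at Rplp0, 6 at Rpl24 and 9 at Rps7. At Rpl23 it lay wholly before the annotated start. Of the called genes with a promoter that are not shown, Rpl18 had a run of 3, Rpsa of 7, Rps14 of 13 and Rpl14 of 14. Long runs therefore stood at members that differed between the doses and at a member that hardly did. A match in this window is a description of the annotated sequence only.

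The values are on a log2-like scale that runs from 7.45 to 15.75, and over all probes 57.1% had a mean under 8, near its floor. The members were among the brightest probes, with a median of 13.26 over their 18-array means. Of the 68, 53 had a mean of at least 10, a level that 14.7% of all probes reached, and 39 had a mean of at least 13. The brightest were Rpl41 at 15.22, Rplp0 at 15.21 and Rpl23a at 15.20. In the vehicle groups the median member stood at the 98.4th percentile of all probes in the frontal lobe and at the 98.9th in total brain. Near the floor were 5 members, Rpl11 (7.66), Rpl34 (7.67), Rps19 (7.75), Rpl36a (7.81) and Rpl12 (7.83), and for them a small difference on this scale can hide a larger one. Between 8 and 10 lay 10 further members, among them Rplp2, Rpl3l (in the mouse a muscle paralogue of Rpl3) and a probe of Rps9. All 68 were tested, with no filter on low values.

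The tissue labels were checked against marker genes. The mean level of 6 cortical projection neuron genes was 10.42 to 10.89 on the frontal lobe arrays and 10.16 to 10.34 on the total brain arrays, and that of 8 cerebellum and hindbrain genes was 7.73 to 7.90 in frontal lobe and 8.58 to 8.99 in total brain. The 4 immature neuron genes stood at 10.17 to 10.48 in the frontal lobe of the older pups and at 11.36 to 11.76 in the total brain of the younger pups. Array medians were 7.83 to 7.84 in frontal lobe and 7.88 to 7.89 in total brain, with no overlap. Whether both tissues were normalized together is not given in the sources used here, so levels across them are set side by side as a description. Arrays of a tissue correlated at 0.981 to 0.997 in frontal lobe and at 0.984 to 0.998 in total brain. In the members, 4 arrays stood apart from their groups: frontal lobe 0.2 mg/kg replicate 2, frontal lobe vehicle replicate 3, total brain 0.002 mg/kg replicate 2 and total brain vehicle replicate 3. They were picked after the data were seen, by the members' own values, so leaving them out shrinks such deviations by construction. Leaving them out also lowers the members' spread within groups, so that choice favours higher counts of calls. Values without the pair of each tissue are given beside the results below.

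In the frontal lobe, 5 ribosomal protein probes were called higher at 0.2 mg/kg than in vehicle: the large-subunit genes Rpl7 and Rpl23, the paralogue Rpl37l1, the small-subunit gene Rps29 and the stalk gene Rplp0. None was called lower, where 0.497% of all probes were. A call is an adjusted p under 0.05 in limma, over all 22523 probes by Benjamini-Hochberg. Over all probes 0.644% were called higher (145), and 1.84% of the 3253 with a mean of at least 10 in the frontal lobe (60).

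Rpl7 (probe ILMN_1370118), a large-subunit protein, had values of 11.59, 11.80 and 11.77 in vehicle, 11.68, 11.72 and 11.62 at 0.002 mg/kg and 12.81, 12.96 and 12.88 at 0.2 mg/kg. The vehicle and 0.002 mg/kg arrays overlapped, and the lowest array at 0.2 mg/kg lay 1 unit above the highest of them. Rpl7 rose at 0.2 mg/kg by 1.16 ± 0.06 (SE) against vehicle, 2.24-fold, with an adjusted p of 0.000894 in limma. Folds here and below read the difference as plain log2, which the sources used here do not settle.

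Rpl23 (ILMN_1374916), a large-subunit protein at the face that meets the small subunit, had 12.80, 12.91 and 12.87 in vehicle, 12.69, 12.71 and 12.70 at 0.002 mg/kg and 13.47, 13.71 and 13.55 at 0.2 mg/kg. All 3 groups were separate, with 0.002 mg/kg the lowest. Rpl23 rose at 0.2 mg/kg by 0.72 ± 0.06 (SE) against vehicle (1.64-fold, adjusted p = 0.00437 in limma).

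Rpl37l1 (ILMN_1354107), which belongs to the zinc-binding Rpl37 family of the large subunit, had 10.48, 10.58 and 10.74 in vehicle, 10.30, 10.34 and 10.47 at 0.002 mg/kg and 11.91, 12.30 and 11.94 at 0.2 mg/kg. The order of the groups was that of Rpl23, and none overlapped. It had the largest difference of the called members, 1.45 ± 0.11 (SE), 2.74-fold (adjusted p = 0.00418 in limma).

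Rps29 (ILMN_1357393), a zinc-binding protein of the small subunit, had 13.48, 13.31 and 13.64 in vehicle, 13.27, 13.35 and 13.32 at 0.002 mg/kg and 13.89, 13.98 and 13.91 at 0.2 mg/kg. The arrays at 0.2 mg/kg were above all others. Rps29 rose by 0.45 ± 0.08 (SE) against vehicle (adjusted p = 0.0402 in limma), and Rpl7, Rpl23, Rpl37l1 and Rps29 were each below vehicle in mean at 0.002 mg/kg.

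Rplp0 (ILMN_1357284), the base of the stalk on which the other stalk proteins sit, had 14.79, 14.76 and 14.89 in vehicle, 14.79, 14.85 and 14.81 at 0.002 mg/kg and 15.26, 15.16 and 15.04 at 0.2 mg/kg. It rose by 0.34 ± 0.06 (SE) against vehicle (adjusted p = 0.0395 in limma). Its partners were not called: Rplp1 averaged 14.02 ± 0.17 at 0.2 mg/kg and 14.00 ± 0.11 in vehicle, and Rplp2 8.41 ± 0.11 and 8.31 ± 0.09 (SD, n = 3 each), with overlapping groups and adjusted p of 0.953 and 0.533 in limma. Rpsa, a small-subunit protein also known as a laminin receptor, averaged 14.18 ± 0.17 at 0.2 mg/kg and 13.78 ± 0.17 in vehicle, a difference of 0.40 with separate groups but an adjusted p of 0.113 in limma.

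**Figure D1:**
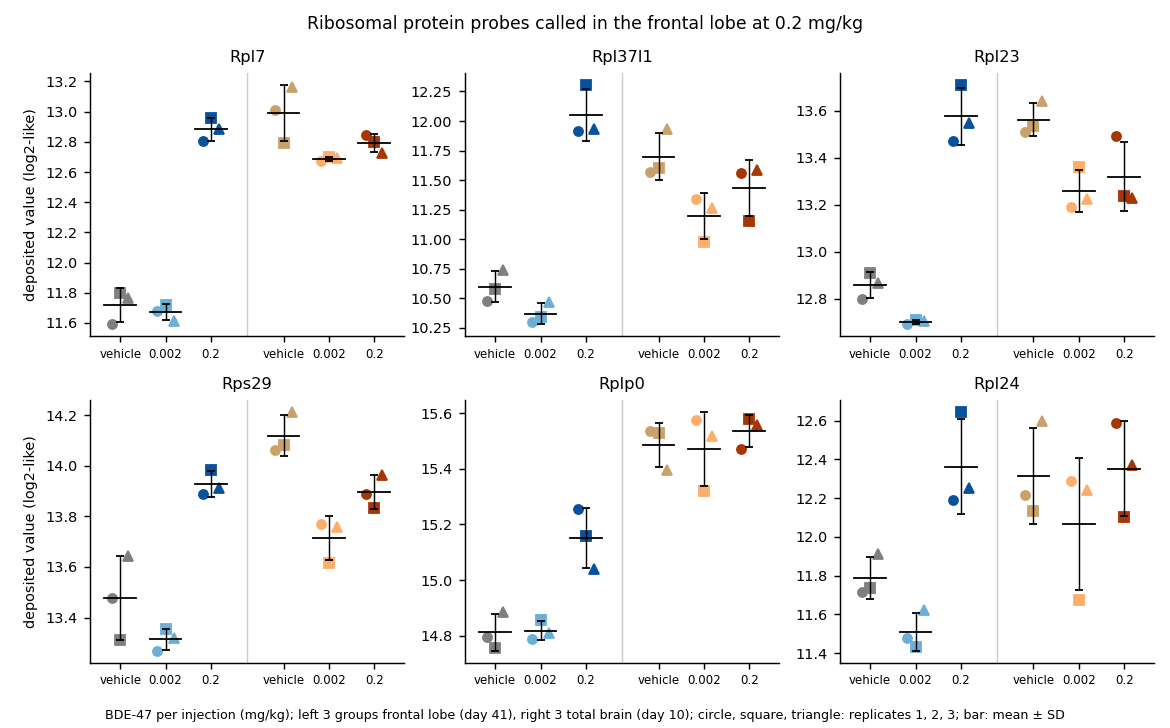
Deposited log2-like values of Rpl7, Rpl37l1, Rpl23, Rps29, Rplp0 and Rpl24 on each of the 18 arrays, by dose in mg/kg per injection and by tissue; bars are the mean ± SD of 3 arrays. In the frontal lobe the arrays at 0.2 mg/kg lie above those at vehicle and 0.002 mg/kg for each gene, while in total brain the means at both doses lie at or below vehicle for Rpl7, Rpl37l1, Rpl23 and Rps29.

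The remaining members were mostly a little higher at 0.2 mg/kg. Of the 68, 53 were above 0, where 51.8% of all probes were, and 26 had an unadjusted p under 0.05 on the higher side and 0 on the lower side, where all probes had 7.55% and 7.44%. The 3 values at 0.2 mg/kg lay above the 3 vehicle values for 18 members and below them for 1, against 8.85% and 8.76% of all probes. The median difference was 0.15 (1.11-fold), with the middle 50% of members between 0.01 and 0.31, and the 3200 other probes with a mean of at least 10 had a median of 0.00014. The medians were 0.14 over 43 large-subunit probes and 0.21 over 25 small-subunit probes. Just outside the threshold were Rps21 (0.38, adjusted p = 0.0547 in limma) and Rpl24 (0.58, adjusted p = 0.0686 in limma).

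Few members lay below vehicle at 0.2 mg/kg. Rps7, a small-subunit protein that takes part in the maturation of its RNA, averaged 14.53 ± 0.15 at 0.2 mg/kg and 14.67 ± 0.05 in vehicle, and was the member whose groups did not overlap downwards (-0.14, adjusted p = 0.371 in limma). Next were Rpl3l (-0.13), Rpl17 (-0.20) and Rps27 (-0.11), with adjusted p of 0.445, 0.501 and 0.631 in limma. The lowest difference was that of Rpl10a, -0.21, between 13.29 ± 0.45 at 0.2 mg/kg and 13.50 ± 0.32 in vehicle (adjusted p = 0.839 in limma). Among the paralogues other than Rpl37l1, Rpl22l1 stood at 0.36, Rpl36al1 at 0.25 and Rpl7l1 at 0.16, with overlapping groups and adjusted p of 0.305, 0.503 and 0.333 in limma. Rps19bp1 stood at 0.30 with separate groups (adjusted p = 0.165 in limma).

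The count of 5 rested on few arrays. Without vehicle replicate 3, whose member values were higher than those of the other vehicle arrays, 17 members were called, and without vehicle replicate 1, vehicle replicate 2, 0.2 mg/kg replicate 1 or 0.2 mg/kg replicate 2, 3 were called. Rpl7, Rpl37l1 and Rpl23 were called whichever of the 6 arrays was left out. Without both arrays that stood apart 14 were called, all higher, 48 of 68 members were above 0 and the median difference was 0.139. That median was 0.0843 without 0.2 mg/kg replicate 2 alone and 0.22 without vehicle replicate 3 alone. Without both arrays that stood apart, 52.1% of all probes were above 0. Calls over all probes were not counted in the fits that left out arrays. These counts therefore cannot be set against a general change in calls.

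Against 0.002 mg/kg the frontal lobe at 0.2 mg/kg showed more called members, 12 higher and 0 lower, while 1.43% of all probes were called higher (321) and 1.44% lower, and 4.33% of those with a mean of at least 10 (141). All 5 called against vehicle were among them. Both comparisons share the arrays at 0.2 mg/kg. The differences were 1.21 for Rpl7 (adjusted p = 0.000721 in limma), 1.68 for Rpl37l1 (3.21-fold), 0.87 for Rpl23, 0.61 for Rps29 and 0.33 for Rplp0.

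The other 7 were not called against vehicle. Rpl24 (ILMN_1353774), a large-subunit protein that reaches across to the small subunit, had 12.19, 12.65 and 12.25 at 0.2 mg/kg, against 11.48, 11.43 and 11.62 at 0.002 mg/kg. It rose by 0.85 ± 0.12 (SE, adjusted p = 0.0185 in limma), and the groups were far apart, with replicate 2 the highest at 0.2 mg/kg. Of the other large-subunit genes, Rpl18 (ILMN_1359760) had 13.19, 13.56 and 13.07 at 0.2 mg/kg, against 12.56, 12.71 and 12.67 at 0.002 mg/kg. Rpl14 (ILMN_1351461) had 14.31, 14.36 and 14.21 at 0.2 mg/kg, against 13.88, 14.00 and 13.85 at 0.002 mg/kg. Neither pair of groups overlapped, and the differences were 0.63 and 0.38 (adjusted p = 0.0458 and 0.0243 in limma).

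The small-subunit genes called were Rps14, Rps20, Rps21 and Rpsa. Rps14 (ILMN_1371508), whose loss in humans is linked to a myelodysplastic syndrome, had 14.65, 14.82 and 14.70 at 0.2 mg/kg, against 14.32, 14.35 and 14.27 at 0.002 mg/kg (0.41, adjusted p = 0.017 in limma). Rps21 (ILMN_1358719) had 14.04, 14.23 and 14.11 at 0.2 mg/kg, against 13.67, 13.66 and 13.67 at 0.002 mg/kg (0.46, adjusted p = 0.0228 in limma). These groups were separate too, with the 0.002 mg/kg values of Rps21 almost equal. Rps20 (ILMN_1351822) had 14.26, 14.45 and 14.36 at 0.2 mg/kg, against 13.97, 14.00 and 14.01 at 0.002 mg/kg (0.36, adjusted p = 0.0316 in limma). Rpsa (ILMN_1372467) had 14.23, 14.31 and 13.99 at 0.2 mg/kg, against 13.73, 13.69 and 13.65 at 0.002 mg/kg (0.49, adjusted p = 0.0486 in limma). Rpsa was the called member closest to the threshold, and Rpl21 the first outside it (0.51, adjusted p = 0.0539 in limma).

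Of all 68 members, 61 were above 0 against 0.002 mg/kg, where 50.1% of all probes were, and the median was 0.24 (1.18-fold) beside -0.02 in other probes with a mean of at least 10. At an unadjusted p under 0.05, 35 were higher and 1 lower, against 9.33% and 9.4% of all probes. The values at 0.2 mg/kg lay wholly above those at 0.002 mg/kg for 41 members and wholly below for 1, against 13.2% and 12.9% of all probes. The exception was Rps24, at 9.41 ± 0.09 at 0.2 mg/kg and 9.60 ± 0.03 at 0.002 mg/kg (SD, n = 3 each), with an adjusted p of 0.121 in limma. Of the paralogues, Rpl22l1, Rpl36al1 and Rpl7l1 were separated upwards without a call (0.54, 0.41 and 0.15), Rplp2 likewise (0.22), and Rpl3l (-0.03) and Rplp1 (0.04) overlapped. Only 3 of the 12 calls (Rpl7, Rpl37l1 and Rpl23) were made in all 6 fits that left out an array. The count was 3 when any one of the 0.002 mg/kg arrays was left out. It was 7 without replicate 2 of the 0.2 mg/kg group, and the median difference was then 0.175. Without both frontal lobe arrays that stood apart it was 17, with 58 of 68 members above 0, where 50.1% of all probes were. Calls over all probes were not counted in these fits either.

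At 0.002 mg/kg the frontal lobe had no called member, and limma called 0 of all probes (0%). Most members were slightly below vehicle, 54 of 68, where 50.5% of all probes were above it. The member median was -0.09, beside 0.0053 in other probes with a mean of at least 10. At an unadjusted p under 0.05, 8 were lower and 0 higher, against 2.1% and 3.01% of all probes. The 3 exposed values lay below the 3 vehicle values for 21 members and above for 1, against 5.7% and 7.07% of all probes. The smallest p belonged to Rpl17, with 13.78 ± 0.05 at 0.002 mg/kg and 14.26 ± 0.16 in vehicle (-0.48), Rpl29, a heparin-binding protein of the large subunit (-0.24), Rps14 (-0.17) and Rpl32 (-0.18), each with an adjusted p of 0.91 in limma. On the other side were Rps24 (0.13), the member separated upwards, Rpl15 (0.12), Rpl34 (0.03) and a probe of Rps9 (1.06), the last on the strength of 1 array. Without vehicle replicate 3 and 0.2 mg/kg replicate 2, 47 of 68 were below vehicle and the median was -0.0335. In that fit 51.6% of all probes were above vehicle.

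**Figure D2:**
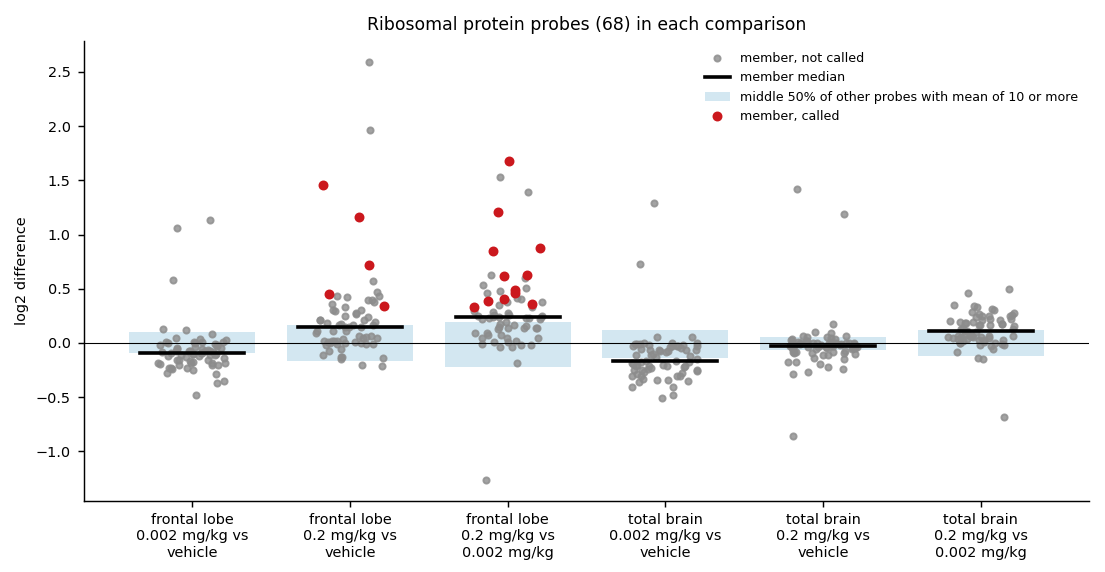
Log2 difference of each of the 68 ribosomal protein probes in the 6 comparisons; red points are called, black bars are member medians, and the blue boxes span the middle 50% of other probes with a mean of at least 10. Called members occur in the frontal lobe at 0.2 mg/kg, 5 against vehicle and 12 against 0.002 mg/kg, and the member medians are below 0 at 0.002 mg/kg in both tissues.

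In total brain no member was called in any of the 3 comparisons, and limma called 0 of all 22523 probes (0%) in each. At 0.002 mg/kg, 64 of 68 members were below vehicle, where 49.3% of all probes were above it, with a median of -0.16 beside -0.0046 in other probes with a mean of at least 10. At an unadjusted p under 0.05, 12 were lower and 0 higher, against 3.18% and 3.34% of all probes, and for 21 members the 3 exposed values lay wholly below vehicle and for 0 wholly above it, against 6.63% and 6.34% of all probes. All 43 large-subunit probes were below 0, and the 4 probes above 0 were both of Rps9, Rps26 (0.06) and Rpsa (0.05). Rps29 had the smallest p of the members, with 13.77, 13.61 and 13.76 at 0.002 mg/kg, against 14.06, 14.08 and 14.21 in vehicle. Its groups were separate, with a difference of -0.41 ± 0.06 (SE) and an adjusted p of 0.364 in limma. Next were Rpl23 (-0.30), Rpl7 (-0.30) and Rps20 (-0.19), each with separate groups and an adjusted p of 0.733 in limma, and the lowest was Rpl37l1 (-0.50). The median was -0.0777 without 0.002 mg/kg replicate 2 and -0.0829 without vehicle replicate 3. Without both of these arrays, which stood apart, it was -0.0295, with 48 of 68 members below vehicle and 4 lower and 0 higher at an unadjusted p under 0.05. In that fit 50.3% of all probes were above vehicle.

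Cell type markers differed on the same total brain arrays. The mean level of the 7 microglia genes was 8.96 on 0.002 mg/kg replicate 2, the array lowest in the members, and 9.16 to 9.34 on the other total brain arrays. It was highest, 9.34, on vehicle replicate 3, the array highest in the members. The 5 mature myelin genes were highest on 0.002 mg/kg replicate 2, at 10.41, and lowest on vehicle replicate 3, at 9.70. All 5 were above vehicle at 0.002 mg/kg and at 0.2 mg/kg with 0 called, and their level ranged from 9.70 to 10.18 in vehicle, 9.99 to 10.41 at 0.002 mg/kg and 10.13 to 10.22 at 0.2 mg/kg. The part of these cells in the members' differences in total brain was not tested.

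At 0.2 mg/kg total brain was close to vehicle. The member median was -0.03, 21 of 68 were above 0, where 49.6% of all probes were, and 51 of 68 lay within 0.1 of vehicle. At an unadjusted p under 0.05, 4 were lower and 0 higher, against 2.21% and 2.11% of all probes. The 4 were Rps29 (-0.22), Rpl23 (-0.24), Rps20 (-0.14) and Rpl7 (-0.20), each with an adjusted p of 1 in limma, and the first 3 had all exposed values below vehicle, where 5.25% of all probes did. No member had all of them above, against 4.88% of all probes. This comparison and that of 0.002 mg/kg share the vehicle arrays. The 4 with the smallest p above 0 were Rpl3l (0.06), Rps23 (0.18) and both probes of Rps9. The median changed sign without vehicle replicate 3 (0.0176) and without 0.2 mg/kg replicate 2 (0.0181). Without both total brain arrays that stood apart it was 0.0176, with 41 of 68 members above vehicle, where 49.9% of all probes were.

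Between the 2 doses in total brain, 58 of 68 members were higher at 0.2 mg/kg, where 50.3% of all probes were, with a median of 0.11. At an unadjusted p under 0.05, 5 were higher and 0 lower, against 2.88% and 2.98% of all probes. Groups did not overlap upwards for 9 members and downwards for 0, against 5.35% and 5.6% of all probes. The largest difference was that of Rpl21, with 14.23, 13.95 and 14.13 at 0.2 mg/kg, against 13.90, 13.07 and 13.85 at 0.002 mg/kg (0.50, adjusted p = 0.78 in limma). Replicate 2 of the 0.002 mg/kg group set it apart, and the member median was 0.0503 without that array. Without both total brain arrays that stood apart, 50 of 68 members were higher, where 50.3% of all probes were. In both tissues the values at 0.2 mg/kg lay wholly above those at 0.002 mg/kg for 5 members, Rpl13a, Rpl21, Rpl7, Rplp2 and Rps29, a pattern found in 1.19% of all probes.

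Whether the tissues responded differently was tested as an interaction on all 18 arrays. For 0.2 mg/kg against vehicle, 4 of 68 members were called, against 46 of all 22523 probes (0.204%), and each was higher in the frontal lobe. At an unadjusted p under 0.05 there were 19 higher and 1 lower, against 12% of all probes in either direction. The response of Rpl7 was 1.16 in frontal lobe and -0.20 in total brain, a difference of 1.36 ± 0.11 (SE, adjusted p = 0.00016 in limma). For Rpl23 the responses were 0.72 in frontal lobe and -0.24 in total brain (difference 0.96, adjusted p = 0.00154 in limma), for Rpl37l1 1.45 in frontal lobe and -0.27 in total brain (1.72, adjusted p = 0.00244 in limma) and for Rps29 0.45 in frontal lobe and -0.22 in total brain (0.67, adjusted p = 0.0148 in limma). In Rpl23, Rps29 and Rps20 the exposed arrays lay wholly above vehicle in frontal lobe and wholly below it in total brain, a pattern found in 0.657% of all probes. Rps20 was not called (0.41, adjusted p = 0.0782 in limma). Without frontal lobe vehicle replicate 3 the count was 7, and without all 4 arrays that stood apart it was 8, each higher in the frontal lobe. No share over all probes was counted for these fits.

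For 0.002 mg/kg no member was called, nor any other probe (0%), and 3 members had an unadjusted p under 0.05 upwards and 2 downwards, against 4.92% of all probes in either direction. The smallest adjusted p of a member in limma was 0.938. Rpl23, Rpl37l1, Rps12 and Rps15 lay wholly below vehicle at 0.002 mg/kg in both tissues, by 0.16, 0.23, 0.29 and 0.25 in frontal lobe and by 0.30, 0.50, 0.28 and 0.48 in total brain. This pattern was found in 0.568% of all probes. None of them was called at 0.002 mg/kg against vehicle in either tissue.

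The members' deviations on each array were summarized by their median. Relative to the mean of its 9 tissue arrays, the median member stood in frontal lobe at -0.09, -0.08 and 0.07 in vehicle, -0.09, -0.12 and -0.13 at 0.002 mg/kg and 0.06, 0.24 and 0.11 at 0.2 mg/kg. In total brain it stood at -0.0011, -0.0061 and 0.19 in vehicle, -0.01, -0.29 and -0.05 at 0.002 mg/kg and 0.09, -0.06 and 0.06 at 0.2 mg/kg. The medians at 0.2 mg/kg and vehicle overlapped in both tissues. After the group means were removed, pairs of the 51 members with a mean of at least 10 (Rps9 and Rpl30 left out) had a median correlation of 0.54 in frontal lobe and 0.63 in total brain, over 9 arrays each. Over the 7 arrays left in each tissue without those that stood apart, it was 0.0165 in frontal lobe and 0.478 in total brain. Those arrays were picked by the members' own values, so a lower correlation without them was built in. Pairs of 17 probes of other TOP genes had -0.02 and -0.07 over 9 arrays, and pairs of 13 ribosome biogenesis probes 0.15 and 0.10. All pairs share the same arrays.

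The arrays also differed along a main axis of variation outside the members. Each array was scored on the first principal component of the arrays of the other tissue, taken around their group means with the members left out. That component held 31.2% of the variance in frontal lobe and 46.9% in total brain. The frontal lobe scores, in SD units, were 0.27, 0.99 and -0.41 in vehicle, 0.65, 0.80 and 1.02 at 0.002 mg/kg and -1.0, -1.86 and -0.48 at 0.2 mg/kg, so the arrays at 0.2 mg/kg were the lowest 3. In total brain the highest score, 2.08, was that of 0.002 mg/kg replicate 2 and the lowest, -1.4, that of vehicle replicate 3, which were also the lowest and highest arrays in the members. With this score as a covariate no member was called in any comparison within a tissue. The member median in the frontal lobe at 0.2 mg/kg against vehicle became -0.0142. Rpl7, Rpl37l1 and Rpl23 kept differences of 1.12, 1.21 and 0.65 in that fit (adjusted p = 0.0541, 0.0888 and 0.142 in limma), while Rplp0 stood at 0.24 and Rps29 at 0.26. The score and the dose overlap in the frontal lobe, and their parts in the general shift cannot be told apart.

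**Figure D3:**
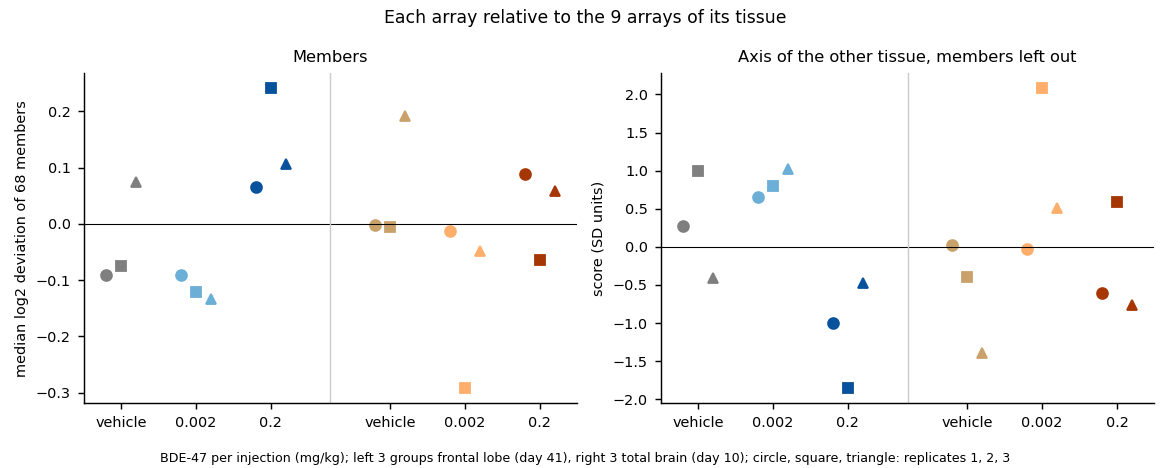
Left, median deviation of the 68 members on each array from the mean of the 9 arrays of its tissue (log2); right, the score of each array on the first principal component of the other tissue (SD units), computed without the members. In both panels the points are arrays by dose and tissue. The frontal lobe arrays at 0.2 mg/kg have the highest member medians apart from vehicle replicate 3 and the lowest 3 scores.

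Markers of other cells also differed between the frontal lobe groups. The 10 meninges and fibroblast genes were all above vehicle in the frontal lobe at 0.2 mg/kg, and their mean level ranged from 9.74 to 10.18 in vehicle, 9.74 to 9.86 at 0.002 mg/kg and 10.16 to 10.58 at 0.2 mg/kg. Igfbp2 of that list averaged 12.03 at 0.2 mg/kg and 11.15 in vehicle (0.88, adjusted p = 0.0308 in limma). The 7 microglia genes, of which Cx3cr1 and Tmem119 were near the floor, ranged from 9.31 to 9.51 in vehicle, 9.31 to 9.49 at 0.002 mg/kg and 9.49 to 9.87 at 0.2 mg/kg, and 6 were above vehicle with 0 called. The 7 red blood cell genes were all above vehicle with 0 called, at 10.89 to 11.28 in vehicle, 10.66 to 10.98 at 0.002 mg/kg and 11.20 to 11.41 at 0.2 mg/kg. The 6 cortical projection neuron genes were at 10.76 to 10.89 in vehicle, 10.84 to 10.89 at 0.002 mg/kg and 10.42 to 10.69 at 0.2 mg/kg, with 2 above vehicle and Slc17a7, a vesicular glutamate transporter, called lower (-0.78, adjusted p = 0.0179 in limma). The 4 immature neuron genes were at 10.21 to 10.48 in vehicle, 10.32 to 10.43 at 0.002 mg/kg and 10.17 to 10.32 at 0.2 mg/kg. Of these, 2 were above vehicle at 0.2 mg/kg, and Dpysl3 was called lower (-0.51, adjusted p = 0.0262 in limma). The 5 mature myelin genes were at 10.27 to 10.55 in vehicle, 10.38 to 10.82 at 0.002 mg/kg and 10.60 to 10.73 at 0.2 mg/kg, wholly above vehicle at the higher dose, with a median difference of 0.24 and 0 called. Replicate 2 at 0.2 mg/kg had the highest meninges and microglia levels and the lowest projection neuron level, beside the highest member median. Vehicle replicate 3, the vehicle array with the highest member median, had the lowest meninges level of its group, 9.74. Its projection neuron level, 10.89, and its microglia level, 9.51, were the highest of the group. Of the 4 endothelium genes (Flt1 near the floor) 0 were above vehicle at 0.2 mg/kg and 0 were called. Their level was 9.21 to 9.56 in vehicle, 9.18 to 9.28 at 0.002 mg/kg and 9.16 to 9.30 at 0.2 mg/kg. Of the 8 choroid plexus genes 5 were near the floor (Clic6, Folr1, Kcne2, Kl and Prlr). At 0.2 mg/kg 4 of the 8 were above vehicle with 0 called, and 7 were above 0.002 mg/kg with 1 called higher. The part of these cells in the members' differences was not tested.

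Rps9 and Rpl30 behaved unlike every other member, since their values fell into 2 separate ranges that cut across the groups. On Rps9 probe ILMN_2038795, 5 of the 18 arrays lay at 11.29 to 12.16 and the other 13 at 7.93 to 8.22. The 5 were frontal lobe 0.2 mg/kg replicates 1 and 3, frontal lobe 0.002 mg/kg replicate 1, total brain 0.2 mg/kg replicate 1 and total brain 0.002 mg/kg replicate 1. The other Rps9 probe, ILMN_2038796, set the same 5 arrays apart, at 12.70 to 13.44 against 9.88 to 10.78, and the probes correlated at 0.98 over the arrays. The high arrays were all from exposed pups, and none of the 6 vehicle arrays was among them. They also followed the replicate number: replicate 1 of every exposed group was high, and frontal lobe 0.2 mg/kg replicate 3 was the remaining one. Neither pattern was tested. Because other arrays of the same groups stayed low, Rps9 was not called: the difference in the frontal lobe at 0.2 mg/kg against vehicle was 2.59 ± 1.17 on one probe and 1.97 ± 0.85 on the other (SE, adjusted p = 0.356 and 0.332 in limma).

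Rpl30, a large-subunit protein, lay at 9.11 to 9.72 on 6 arrays and at 12.64 to 13.64 on 12. The low arrays were frontal lobe 0.2 mg/kg replicate 1, frontal lobe vehicle replicate 3, total brain 0.2 mg/kg replicates 1 and 2, total brain 0.002 mg/kg replicate 3 and total brain vehicle replicate 1. They came from 5 of the 6 groups, and 2 of them also belonged to the high Rps9 arrays. An SD over 1 within groups was found for these 3 member probes in each tissue and for 18 probes in all in frontal lobe (0.0799%) and 9 in total brain (0.04%). In every other member the widest gap between neighbouring arrays was at most 0.87. What sets the 2 ranges was not tested.

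**Figure D4:**
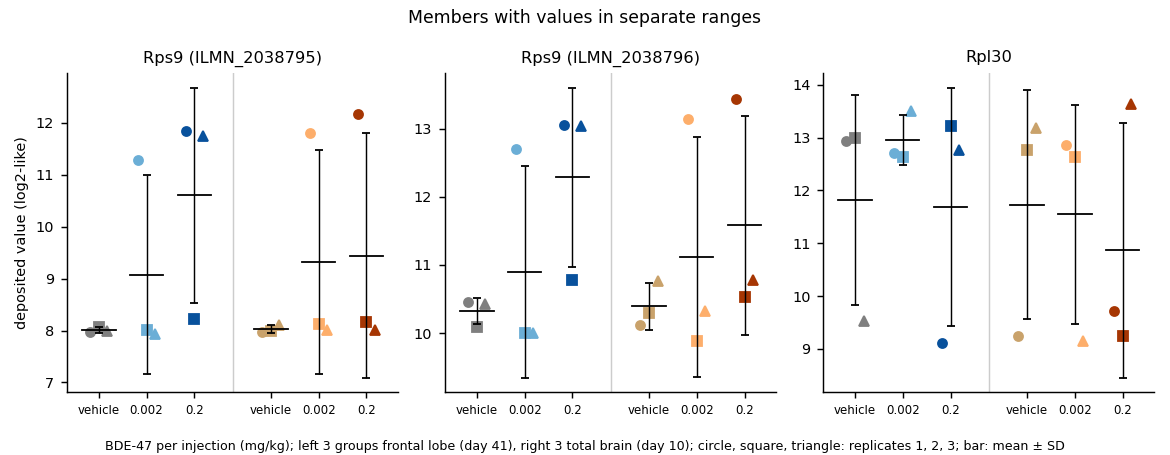
Deposited log2-like values of both Rps9 probes and of Rpl30 on each of the 18 arrays by dose and tissue, with the mean ± SD of 3 arrays. Rps9 is high on 5 arrays of exposed pups, among them replicate 1 of every exposed group, and low on 13. Rpl30 is low on 6 arrays and high on 12, with nothing between for either gene.

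In vehicle pups the members were lower in the frontal lobe of day 41 than in total brain of day 10. The median difference was -0.23, against -0.10 over the probes with a mean of at least 10, and 61 of 68 were lower, 41 of them with all 3 values below. Over all probes 78.3% were lower and 51.6% wholly below, and over those with a mean of at least 10 the shares were 59.3% and 37%. Without vehicle replicate 3 of both tissues the member median was -0.23 and 56 were lower. The widest differences were Rpl7 (-1.27), Rpl37l1 (-1.10), Rps2 (-1.05), Rpsa (-0.96) and Rpl15 (-0.86), and the highest members in frontal lobe were Rpl3l (0.35) and Rps23 (0.23). At 0.2 mg/kg the frontal lobe value of Rpl7 was 12.88 ± 0.08, against 12.99 ± 0.19 in the total brain of vehicle pups, and that of Rpl23 was 13.58 ± 0.12, against 13.56 ± 0.07. The other members called against vehicle were less alike in these groups. Rpl37l1 was higher in the exposed frontal lobe, 12.05 ± 0.22 against 11.70 ± 0.20. Rps29 (13.93 ± 0.05 against 14.12 ± 0.08) and Rplp0 (15.15 ± 0.11 against 15.49 ± 0.08) were lower there.

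Across members, those lowest in frontal lobe relative to total brain had the larger difference between the doses. The frontal lobe difference of 0.2 minus 0.002 mg/kg and the frontal lobe minus total brain difference of the vehicle groups, which share no arrays, correlated at r = -0.47 over 68 probes, and at -0.66 over 65 without Rps9 and Rpl30. The same correlation was -0.42 over 3267 other probes with a mean of at least 10, so it was not particular to the members. Without the arrays that stood apart the values were -0.475 over 68 probes, -0.649 over 65 and -0.441 over the other probes. Rps2 and Rpl15, with vehicle differences of -1.05 and -0.86, stood at 0.62 and -0.0066 between the doses. Genes are not independent replicates, and no p is given.

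**Figure D5:**
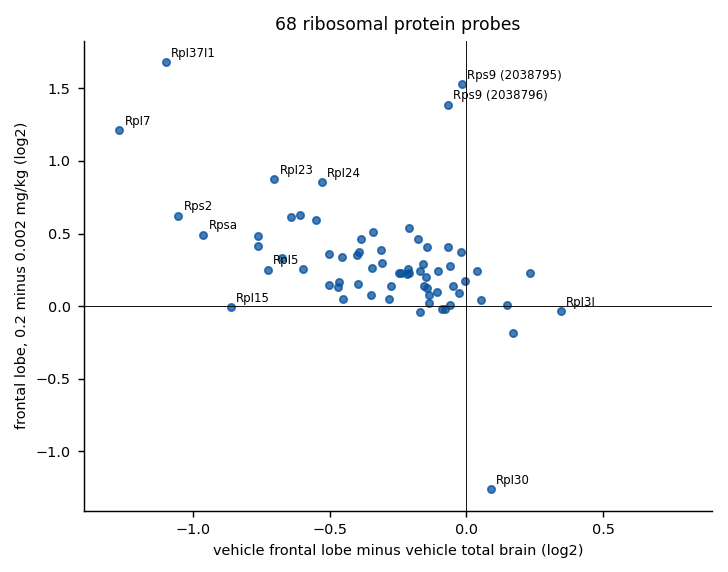
Each of the 68 member probes by its vehicle difference, frontal lobe minus total brain (x axis, log2), and its frontal lobe difference, 0.2 minus 0.002 mg/kg (y axis, log2). Rpl7 and Rpl37l1 lie at the upper left, Rps9 and Rpl30 apart from the rest, and most members below 0 on the x axis lie above 0 on the y axis.

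Lists of genes that work with the ribosomal proteins were tested in the same fits. Of 19 probes for 15 other TOP genes, 1 was called in the frontal lobe at 0.2 mg/kg, both against vehicle and against 0.002 mg/kg. It was a probe of Eef1a1 (ILMN_2039948), which delivers aminoacyl-tRNA, at 13.90 in exposed pups and 12.75 in vehicle (1.15, adjusted p = 0.00972 in limma), but the other 4 Eef1a1 probes lay within 0.08 of vehicle. The list's median was 0.08 against vehicle and 0.09 against 0.002 mg/kg. Nap1l1, a histone chaperone, was next against vehicle (0.22, adjusted p = 0.128 in limma).

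Of 31 ribosome biogenesis genes, 0 were called against vehicle and 1 against 0.002 mg/kg. Ebna1bp2, a nucleolar assembly factor, averaged 9.99 at 0.2 mg/kg and 9.44 at 0.002 mg/kg (0.55, adjusted p = 0.0379 in limma), and Fbl, which methylates ribosomal RNA, stood at 0.53 (adjusted p = 0.0589 in limma). The list's medians were 0.04 in both comparisons. Of 12 RNA polymerase I genes none was called, with 3 at an unadjusted p under 0.05, all higher, in either comparison. Polr1c (0.36) and Polr1b (0.31) led them against vehicle, with adjusted p of 0.102 and 0.135 in limma. Of 20 genes of mTOR signalling and TOP control none was called, and 3 were higher and 1 lower at an unadjusted p under 0.05 against vehicle. Rragc, a GTPase that recruits mTOR, stood at 0.24 (adjusted p = 0.0644 in limma) and Rps6kb1, the kinase of ribosomal protein S6, at -0.25 against 0.002 mg/kg (adjusted p = 0.0776 in limma). In total brain none of these lists had a called gene.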

How the data were processed

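Total RNA of 18 brain samples was hybridized to Illumina rat arrays as biotin-labelled cRNA, per the labels' protocols. The deposited values are on a log2 scale after the authors' processing with lumi, per the submitters' processing notes. Not given in the sources used here are its version, the background correction, how arrays were normalized and whether log2 was taken plainly or through a variance-stabilizing transform, and no detection p, chip or batch is known. The values were used as deposited.

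Each tissue's 9 arrays had their own fit for the dose contrasts, and interactions used all 18, with limma 3.58.1 (lmFit, eBayes) in R 4.3.3 and adjusted by Benjamini-Hochberg over 22523 probes. Replicates are separate litters. Figures and promoter searches used Python 3.11.15 and matplotlib 3.10.9. The platform annotation named the probes, and RefSeq (GRCr8) matched 66 of the 68 members by gene identifier and gave promoters. The code was tested on simulated data.

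The members, lists and tests were chosen with earlier results of these data known. Named are called members, the 4 with the smallest p on each side of 0 per dose, the largest and smallest differences, stalk genes, paralogues, members separated in both tissues, and, of other lists, called genes or those with the smallest p. Rps2, Rpl15, Rpl10a, Rpl18 and others outside the rule were named after their values were seen. Alternatives were quantile normalization, centring on bright probes, testing only the brighter 50% of probes, a trended and robust eBayes, the replicate block, the array score as a covariate, the 6 arrays compared alone, an adjusted p under 0.1, 1 probe per gene, leaving out each array and, added after seeing the data, leaving out the 4 arrays that stood apart. The number of arrays limits the precision.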

Additional observations from a re-analysis of the deposited data

Results flagged for a closer look

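The response to 0.2 mg/kg against vehicle differed between frontal lobe and total brain in 4 ribosomal protein genes, by an interaction term in limma over all 18 arrays. The difference, frontal lobe minus total brain, was 1.36 for Rpl7, 0.96 for Rpl23, 1.72 for Rpl37l1 and 0.67 for Rps29. In each the response was above 0 in frontal lobe and below 0 in total brain, and in total brain none of the 4 was called. In Rpl7 and Rpl37l1 the exposed and vehicle values of total brain overlapped, and in Rpl23 and Rps29 they did not.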

How the results depend on the processing

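For the frontal lobe at 0.2 mg/kg against vehicle, the count of called members (5) became 8 among the brighter 50% of probes. It was 7 with the trended and robust eBayes, 1 with the 6 arrays alone, 12 at an adjusted p under 0.1 and 0 with the array score as a covariate. Against 0.002 mg/kg the count (12) became 18 among the brighter 50% of probes, 17 with the trended and robust eBayes and 15 with the 6 arrays alone. It was 10 after quantile normalization, 19 at an adjusted p under 0.1 and 0 with that covariate. Leaving out 1 array gave 3 to 17 against vehicle, 3 to 13 against 0.002 mg/kg and 3 to 7 (main value 4) for the interaction at 0.2 mg/kg. The count was 0 in the other comparisons under the alternatives run for them (the covariate, the 6 arrays alone and the looser threshold were not run for the interactions). Without the arrays that stood apart, an alternative chosen after seeing the data, the counts were 14 against vehicle, 17 against 0.002 mg/kg and 8 for the interaction. Those arrays were picked by the members' own values, which favours higher counts without them. Calls over all probes were not counted under any of the alternatives. With the replicate block the counts were 3 against vehicle and 3 against 0.002 mg/kg in the frontal lobe, 4 for the interaction at 0.2 mg/kg and 0 in the other comparisons. Same-numbered arrays of a tissue correlated around their group means at -0.249 to 0.105 in frontal lobe and -0.294 to 0.44 in total brain. Over 0.1 were 7 of 18 pairs. In total brain the pairs of 0.002 with 0.2 mg/kg stood at 0.238, 0.44 and 0.163. The main fits did not take the numbers as pairs. Pairs across tissues were not computed, and a shared effect of the replicate number was not tested there.

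With the covariate the member median became -0.0142 in the frontal lobe at 0.2 mg/kg against vehicle and 0.0113 against 0.002 mg/kg, and in total brain 0.0075 at 0.002 mg/kg, 0.00507 at 0.2 mg/kg and -0.00289 between the doses. The cause was not tested. Without 1 array the medians ranged from 0.0843 to 0.22 in the frontal lobe at 0.2 mg/kg against vehicle, 0.175 to 0.305 against 0.002 mg/kg and -0.127 to -0.0335 at 0.002 mg/kg. In total brain they ranged from -0.235 to -0.0777 at 0.002 mg/kg, -0.0655 to 0.0181 at 0.2 mg/kg and 0.0503 to 0.186 between the doses. Without the arrays that stood apart they were 0.175 in the frontal lobe at 0.2 against 0.002 mg/kg and, in total brain, -0.0295 at 0.002 mg/kg and 0.0176 at 0.2 mg/kg. The member medians kept their sign under the remaining alternatives. The precision is limited by 3 arrays per group.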
